A study of Mus musculus with 8 samples.

Results

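The transcripts described here mark blood left in dissected mouse hippocampus: 5 genes of red blood cells (Hbb-bs, Hbb-bt, Hba-a1, Hba-a2 and Alas2) and 4 genes of neutrophils (S100a8, S100a9, Ngp and Camp). They are the 9 of 56575 listed features whose symbol matched those names, and each symbol occurred on a single row. The study took hippocampi from C57BL/6 mice aged 8 weeks to ask how gene expression and splicing differ without SLM2, a splicing regulator encoded by Khdrbs3. It holds 4 libraries labelled Slm2KO and 4 labelled WT. The labels give strain, tissue, age and genotype for both groups. Tissue was flash frozen and RNA was extracted with Trizol before library construction from total RNA, and the labels name no perfusion step. Nothing in them states that the libraries are from separate animals, so the p-values describe how these 8 libraries vary, which may be partly technical. Values are normalised read counts, that is reads per gene divided by a scaling factor for the library, without correction for gene length.

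Adult hemoglobin is a tetramer of alpha-globin and beta-globin chains, each holding a heme group that carries oxygen. Circulating red cells have no nucleus, and reticulocytes, the youngest of them, still carry globin mRNA, so whole tissue with blood in its vessels yields globin reads. Neutrophils are short-lived white cells of the blood. S100a8 and S100a9 form calprotectin, an abundant cytosolic protein of neutrophils, whereas Ngp and Camp encode granule proteins that are made mainly while neutrophils mature in the bone marrow.

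The 5 erythroid genes lie on 3 chromosomes (mm10). Hbb-bs (chr7:103826523-103827988, minus strand) and Hbb-bt (chr7:103812524-103813926, minus strand) encode the adult beta-globins of this strain, and Hba-a1 (chr11:32283671-32284489, plus strand) and Hba-a2 (chr11:32296488-32297309, plus strand) encode alpha-globin. Alas2 (chrX:150547417-150570622, plus strand) encodes the erythroid aminolevulinate synthase, the enzyme of the first step of heme synthesis. S100a8 (chr3:90669070-90670034, plus strand) and S100a9 (chr3:90692631-90695721, minus strand) are neighbours. Ngp (chr9:110419808-110423010, plus strand) and Camp (chr9:109847375-109849456, minus strand), the cathelicidin gene, also share a chromosome. The globin copies are nearly identical, which bears on how their reads can be told apart. The coding sequences of Hbb-bt and Hbb-bs (444 bases each) differed at 1 base, as did those of Hba-a2 and Hba-a1 (429 bases each). The stretches around these bases, from GENCODE vM21 transcripts, are shown 5′ to 3′ with the differing base in capitals (coding bases 384 to 444 for beta, 351 to 411 for alpha).
Hbb-bt coding stretch: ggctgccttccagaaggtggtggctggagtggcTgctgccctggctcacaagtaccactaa
Hbb-bs coding stretch: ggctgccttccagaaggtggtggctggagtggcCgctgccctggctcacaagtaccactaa
Hba-a2 coding stretch: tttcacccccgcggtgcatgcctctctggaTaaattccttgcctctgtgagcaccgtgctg
Hba-a1 coding stretch: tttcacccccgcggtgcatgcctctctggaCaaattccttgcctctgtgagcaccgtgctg
Of all 50-base windows in a transcript, 58.3% of those of Hbb-bt also occurred in Hbb-bs, and 86.9% of those of Hba-a2 in Hba-a1. Counts of a single globin copy are therefore uncertain, since the sources used here do not say how the authors' counting split shared reads, and sums per chain are given beside them. S100a9 and S100a8 shared no such window, nor did Camp and Ngp. Of the 2403 exonic bases of Alas2, 311 overlap the antisense gene Apex2. The library kit is unstranded, and reads of that stretch could come from either gene.

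The windows of 250 bases before the gene start (RefSeq, GRCm38.p6) are shown for 5 genes as background. Whether they bear on the levels across libraries was not tested. They are written 5′ to 3′ on the gene's strand. Capitals mark matches, on either strand, to GATAA (the core that GATA factors bind), CACCC (bound by KLF1), CCAAT (a common promoter box), TATAA (the TATA box), TTNNGNAA (the pattern bound by C/EBP factors) and GAGGAA (the PU.1 core). The windows are chr7:103827929-103828178, minus strand, for Hbb-bs; chr11:32283422-32283671, plus strand, for Hba-a1; chrX:150547167-150547416, plus strand, for Alas2; chr3:90668821-90669070, plus strand, for S100a8; and chr3:90695722-90695971, minus strand, for S100a9.
Hbb-bs upstream window: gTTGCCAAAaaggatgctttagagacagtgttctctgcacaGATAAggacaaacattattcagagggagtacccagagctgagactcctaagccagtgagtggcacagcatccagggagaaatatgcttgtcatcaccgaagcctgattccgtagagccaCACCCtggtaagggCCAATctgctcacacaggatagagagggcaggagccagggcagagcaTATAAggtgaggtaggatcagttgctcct
Hba-a1 upstream window: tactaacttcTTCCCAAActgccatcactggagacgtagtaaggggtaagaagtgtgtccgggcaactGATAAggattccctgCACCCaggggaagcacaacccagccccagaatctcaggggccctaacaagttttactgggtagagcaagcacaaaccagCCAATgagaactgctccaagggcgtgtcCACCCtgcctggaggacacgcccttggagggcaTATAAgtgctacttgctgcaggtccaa
Alas2 upstream window: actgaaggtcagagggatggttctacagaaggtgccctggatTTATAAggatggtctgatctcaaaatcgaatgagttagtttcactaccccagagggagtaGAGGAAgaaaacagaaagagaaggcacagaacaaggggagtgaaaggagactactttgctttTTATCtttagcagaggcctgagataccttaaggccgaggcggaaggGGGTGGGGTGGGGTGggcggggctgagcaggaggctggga
S100a8 upstream window: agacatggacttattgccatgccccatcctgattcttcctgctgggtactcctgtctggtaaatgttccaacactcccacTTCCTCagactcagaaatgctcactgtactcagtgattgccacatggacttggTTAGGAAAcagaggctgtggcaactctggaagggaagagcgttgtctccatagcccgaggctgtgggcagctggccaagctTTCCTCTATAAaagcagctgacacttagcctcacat
S100a9 upstream window: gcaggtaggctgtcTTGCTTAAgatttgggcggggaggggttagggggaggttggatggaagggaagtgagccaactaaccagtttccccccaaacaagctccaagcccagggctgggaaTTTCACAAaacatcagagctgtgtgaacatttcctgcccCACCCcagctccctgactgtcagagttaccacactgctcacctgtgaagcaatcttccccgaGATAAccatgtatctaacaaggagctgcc
GATAA occurred in the windows of 5 of 5 erythroid genes and 1 of 4 neutrophil genes, and in 22.6% of 32851 windows of all genes. CACCC occurred in 5 of 5 and 2 of 4, against 52.0% of all windows. TATAA was in 5 of 5 and 1 of 4, against 22.8%, and CCAAT in 4 of 5 and 1 of 4, against 33.8%. TTNNGNAA was in 3 of 5 erythroid and 3 of 4 neutrophil windows, against 36.8%, and GAGGAA in 1 of 5 and 1 of 4, against 23.3%. Among these matches, only the TATAA matches of Alas2, on opposite strands, overlapped each other. Hba-a1 and Hba-a2 had identical windows over 247 bases at an offset of 3, so the alpha genes are not separate cases. A match describes letters and does not show binding.

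Recovered depth was 104020058 to 125985224 reads per library. The tissue label fitted the neuronal genes: Snap25, a synaptic vesicle fusion protein, averaged 126990 ± 10487.5 in Slm2KO and 131073 ± 10620.4 in WT libraries, and Prox1, a dentate granule cell factor, 6501 ± 836 in Slm2KO and 7432 ± 330 in WT libraries (SD, n = 4 each). Khdrbs3 was not lower but higher in every library labelled Slm2KO (25932 to 33366, against 19458 to 24544 in WT). The count of the targeted gene therefore did not check the genotype labels, and every direction below compares labels. Khdrbs2, its paralog, was also higher in every Slm2KO library, with 2088 to 2730.5 in Slm2KO and 972 to 1208 in WT libraries. The sample descriptions carry running numbers in a lower series (below 300, libraries 1 and 2 of each group) and a higher series (above 300, libraries 3 and 4 of each group), whose meaning the labels do not give. Y-linked features summed to over 1000 normalised reads in 3 libraries, Slm2KO 3, Slm2KO 4 and WT 4, all of the higher series, and to at most 3.62 in the others. Choroid plexus RNA also varied, with Ttr between 219052 and 2262370.

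Hbb-bs was the most abundant of the 9 transcripts and was present in every library. Its normalised read counts were 8712, 16221, 7036 and 9721 in Slm2KO 1 to 4, against 7556, 8438, 10330.1 and 6718 in WT 1 to 4. Slm2KO 2 was the highest library, at 1.92 times the median of the other 7, and the remaining Slm2KO libraries lay within the WT range. Hbb-bt counts were 1392, 3378, 1313 and 1752 in Slm2KO 1 to 4, against 1241, 1400.05, 1912 and 1311 in WT 1 to 4. Slm2KO 2 again stood above all others, at 2.43 times their median, with WT 3 next.

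Alpha-globin was also highest in Slm2KO 2, whereas the library next to it differed between the genes. Hba-a1 counts were 5691, 11711, 3888 and 5594 in Slm2KO 1 to 4, against 5260, 6251, 6218 and 4100.35 in WT 1 to 4. Hba-a2 counts were 3637, 6737, 2465 and 3098 in Slm2KO 1 to 4, against 3428, 3431, 3280.4 and 2266 in WT 1 to 4. For both genes Slm2KO 2 was highest, and the lowest libraries were Slm2KO 3 and WT 4, so the groups overlapped. Alas2 counts were 152, 405, 131 and 179 in Slm2KO 1 to 4, against 182, 192, 213 and 103 in WT 1 to 4. Slm2KO 2 had 2.26 times the median of the other 7 libraries, and the other Slm2KO libraries lay inside the WT range.

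**Figure D1:**
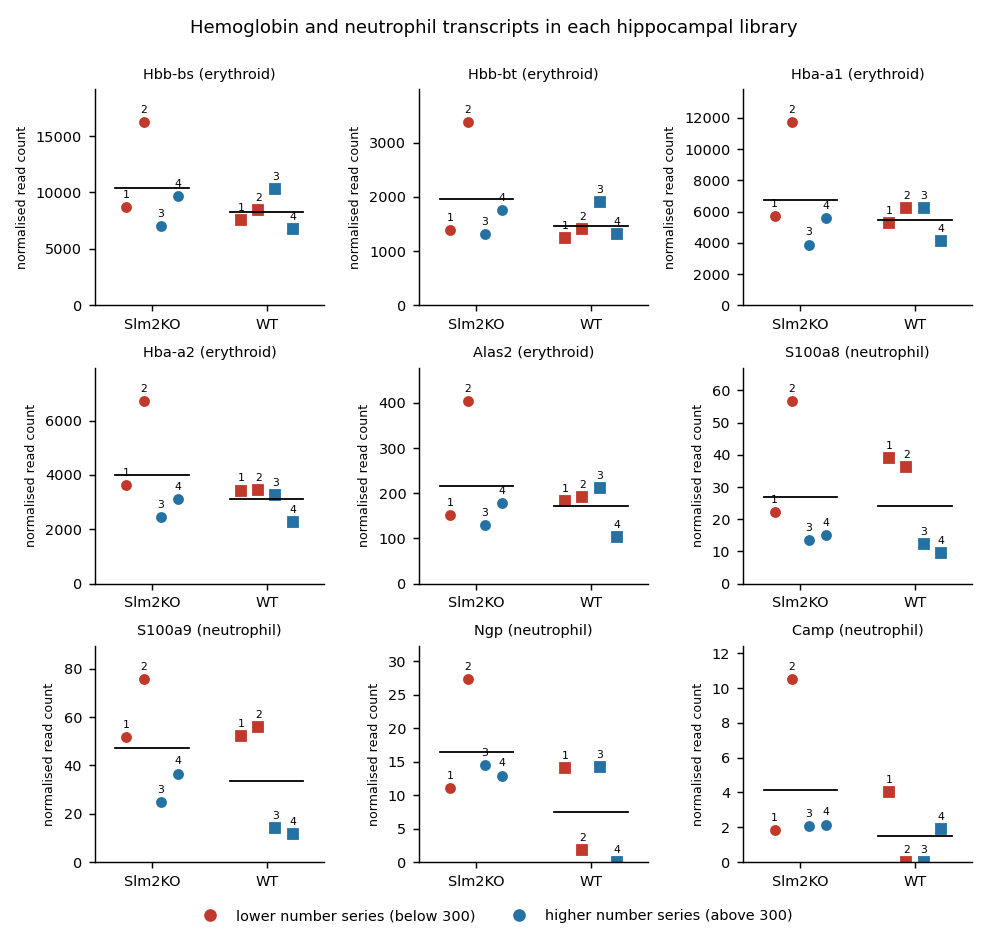
Normalised read count (linear axis from 0) of each gene in the 4 Slm2KO libraries (circles, left) and 4 WT libraries (squares, right), numbered by replicate, with lines at group means and colours for the number series of the sample descriptions. Slm2KO 2 is the highest library in all 9 panels, and S100a8 and S100a9 of the lower series (22.2 to 56.8 and 51.8 to 75.7) lie above those of the higher series (9.57 to 15.1 and 11.5 to 36.6).

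Summed over the 4 globin genes, residual red cell RNA made up 168, 326.2, 125 and 180 RPM (reads scaled to the library's depth) in Slm2KO 1 to 4, against 154, 171, 189 and 121 in WT 1 to 4. The globin reads of the 8 libraries thus spanned 2.69-fold. The group means were 200 ± 87.4 in Slm2KO and 159 ± 28.8 in WT libraries (SD, n = 4 each). Without Slm2KO 2 the mean of the remaining 3 was 158 ± 28.7, level with WT. In bulk tissue, more red cells and more globin mRNA per cell cannot be told apart.

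Per kilobase of transcript, Hbb-bs had the highest mean level, 16596 ± 6403 in Slm2KO and 13154 ± 2465 in WT libraries (SD, n = 4 each, as for all per-kilobase means here). Next came Hba-a1 (9615 ± 4904 in Slm2KO and 7807 ± 1451 in WT), Hba-a2 (7192 ± 3423 in Slm2KO and 5598 ± 1014 in WT) and Hbb-bt (2786 ± 1373 in Slm2KO and 2085 ± 433 in WT). The spreads of Hba-a1 and Hba-a2 overlapped, whereas Hbb-bt lay below the means of the other globins by more than its own SD. Alas2 stood at 106 ± 62.5 in Slm2KO and 84.7 ± 23.5 in WT libraries. S100a9 at 92.3 ± 42.9 in Slm2KO and 65.3 ± 46.6 in WT, and S100a8 at 55.3 ± 41.8 in Slm2KO and 49.9 ± 31.9 in WT, lay below Alas2 in mean, with spreads that overlapped its own and each other's. The granule genes were lowest, Ngp at 13.5 ± 6.05 in Slm2KO and 6.14 ± 6.26 in WT, and Camp at 5.47 ± 5.61 in Slm2KO and 1.95 ± 2.52 in WT.

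Neutrophil transcripts were scarce, so counting error weighs on them. Together the 4 genes gave 0.193 to 1.46 RPM. S100a8 counts were 22.2, 56.8, 13.5 and 15.1 in Slm2KO 1 to 4, against 39.1, 36.2, 12.1 and 9.57 in WT 1 to 4. The Slm2KO 2 value rests on 54 reads (exact Poisson 95% interval 40.6 to 70.5) and the WT 4 value on 10 reads (4.80 to 18.4), and these intervals cover counting error only. S100a9 counts were 51.8, 75.7, 24.9 and 36.6 in Slm2KO 1 to 4, against 52.1, 56.0, 14.2 and 11.5 in WT 1 to 4. For both calprotectin genes the groups overlapped, and the 4 highest libraries were replicates 1 and 2 of each group.

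The granule genes did not follow calprotectin in every library. Ngp counts were 11.1, 27.4, 14.5 and 12.9 in Slm2KO 1 to 4, against 14.0, 1.81, 14.2 and 0 in WT 1 to 4. WT 2, which had calprotectin counts like those of WT 1, held only 2 Ngp reads, and WT 4 held none, which allows up to 3 reads. Camp counts were 1.85, 10.5, 2.07 and 2.15 in Slm2KO 1 to 4, against 4.01, 0, 0 and 1.91 in WT 1 to 4. Slm2KO 2 with 10 Camp reads (4.80 to 18.4) was the highest library, and the remaining 7 had at most 4 reads.

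The first comparison asked whether residual blood transcripts differ between genotype labels. No gene of the 9 passed the test, and for none did the groups separate. The fit used limma on log2(value + 1) for the 25667 features with a mean of at least 10, with Benjamini-Hochberg adjustment over all of them. Camp, with a mean of 2.81, was below that filter. Ngp, with a mean of 11.99, passed it through its Slm2KO libraries (16.5 ± 7.39 in Slm2KO and 7.50 ± 7.65 in WT, SD, n = 4 each). Thus 0 of 8 genes were called, where 0.00390% of all features were, and 0 of 9 had groups that did not overlap, against 2.50% of features. In this fit none of the 8 passed an unadjusted p of 0.05 either, against 3.52% of features, and edgeR's quasi-likelihood test called none of them. DESeq2 called none of the 5 erythroid genes and gave no adjusted p for S100a8, S100a9 and Ngp (unadjusted p of 0.801, 0.342 and 0.161).

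The fitted log2 fold change of Hbb-bs, Slm2KO over WT, was 0.28 (SE 0.226, adjusted p = 1.00 in limma, exact permutation p = 0.429), which is 1.22-fold with a 95% interval of 0.858 to 1.72. Hbb-bt (0.33, SE 0.269), Hba-a1 (0.20, SE 0.283), Hba-a2 (0.27, SE 0.268) and Alas2 (0.22, SE 0.348) had log2 fold changes of like size. S100a8 was at 0.15 (SE 0.562), 1.11-fold with an interval of 0.465 to 2.64, and S100a9 at 0.70 (SE 0.548), 1.62-fold with an interval of 0.695 to 3.77. Ngp had the highest value, 1.71 (SE 0.828), with the lowest unadjusted p of the 8, 0.0651, and an exact permutation p of 0.229. With so few reads that value depended on the setting: it was 0.67 with a pseudocount of 10, 1.14 in edgeR, 0.94 without WT 4 and 2.24 without WT 3. With the number series as a term, S100a9 had an unadjusted p of 0.0364 (limma adjusted p = 0.993). Its log2 fold change of 0.70 could not change, since both groups hold the series in equal numbers. That term takes out a split by which S100a9 itself separates, so the smaller p is not separate support. Without the term, adjusted p was 1.00 in limma for each of the 8 genes. All 8 fitted values were above 0, as were 46.1% of all features, but the genes share libraries and blood, so the 8 directions are not separate observations. The intervals leave room for changes of 1.72-fold for Hbb-bs and of over 2-fold for the calprotectin genes, so a p that missed the threshold does not show equal levels.

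The direction rested largely on Slm2KO 2. Without it, the ratio of the Slm2KO mean (n = 3) to the WT mean (n = 4) was 1.03 for Hbb-bs, 1.01 for Hbb-bt, 0.927 for Hba-a1, 0.989 for Hba-a2 and 0.891 for Alas2. Among neutrophil genes it was 0.698 for S100a8, 1.13 for S100a9, 1.71 for Ngp and 1.37 for Camp. In that setting the fitted log2 fold changes of Hba-a1 (-0.11), Hba-a2 (-0.01), Alas2 (-0.13) and S100a8 (-0.28) were below 0.

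**Figure D2:**
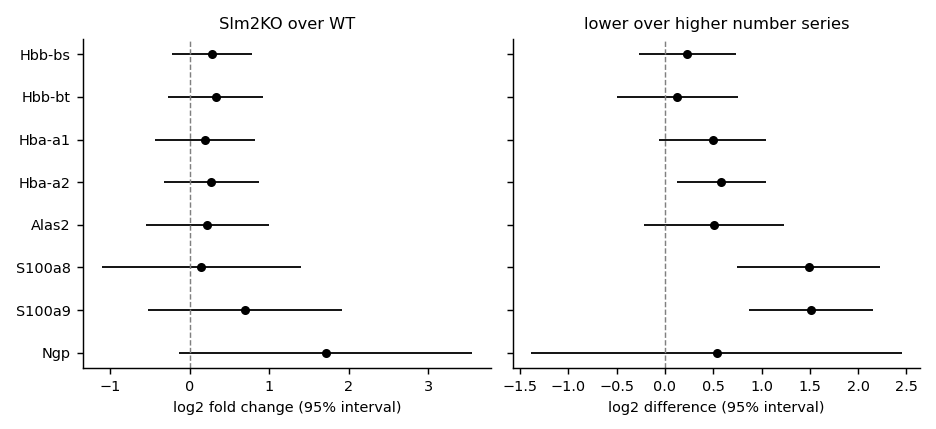
Fitted log2 difference with its 95% interval (bars, limma) for the 8 genes tested, Slm2KO over WT on the left and the lower over the higher number series on the right, with a dashed line at 0. On the left all intervals include 0. On the right those of Hba-a2, S100a8 and S100a9 do not, though no adjusted p passed 0.05.

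Calprotectin transcripts separated by the number series of the sample descriptions, not by genotype label. This contrast was chosen after the values by library were seen, with genotype kept as a term. S100a8 lay between 22.2 and 56.8 in the lower series and between 9.57 and 15.1 in the higher series. The fitted difference was 1.49 on the log2 scale (SE 0.328), 2.80-fold higher in the lower series (95% interval 1.68 to 4.68). S100a9 lay between 51.8 and 75.7 in the lower series and between 11.5 and 36.6 in the higher series, with a log2 difference of 1.51 (SE 0.284), 2.86-fold (1.83 to 4.45). Neither passed adjustment over all features in limma (adjusted p = 0.208 for S100a8 and 0.190 for S100a9). Exact permutation p was 0.0286 for each, the smallest that 70 assignments can give, since all 4 lower-series libraries lay above all 4 higher-series libraries.

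Hba-a2 was the other gene whose series did not overlap, with 3428 to 6737 in the lower and 2266 to 3280.4 in the higher series (log2 difference 0.59, SE 0.203, limma adjusted p = 0.325). Thus 3 of the 8 tested genes were higher in every lower-series library, where 3.99% of all features were and 7.28% of features had no overlap in either direction. The same 3 had an unadjusted p under 0.05 with higher values in the lower series, as did 6.70% of features. The split was chosen after the values of these genes by library were seen. They also share libraries and blood, so these shares are a description and not support. Hbb-bs (0.23), Hbb-bt (0.13), Hba-a1 (0.50), Alas2 (0.51) and Ngp (0.54) had positive log2 differences with overlapping series, so all 8 were above 0, as were 49.2% of features. Neither limma nor edgeR's quasi-likelihood test called any of the 8 after adjustment, where limma called 0.0117% of features in either direction.

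Other properties of the libraries moved with the series, and their part in the result was not tested. The 3 libraries with Y-linked reads all belong to the higher series. With their presence as a further term, the series difference rests on WT 3 alone against the lower series. In that fit the log2 differences of S100a8 and S100a9 were 1.43 and 1.64, whereas that of Hba-a2 was 0.11. WT 3, the only higher-series library without Y-linked reads, held 12.1 of S100a8 and 14.2 of S100a9. A single library cannot tell the series and the Y-linked reads apart. Of 21 endothelial and mural genes, 18 were higher in the lower series (median log2 difference 0.40). Their summed count was 67823 to 79468 in the lower and 56370.4 to 65973 in the higher series. Of 13 monocyte and border macrophage genes 11 were higher in the lower series (median 0.40). Their summed count, led by Fn1 (mean 7080), was 8087 to 15437 in the lower and 6994 to 9152 in the higher series. The same direction held for 11 of 15 meningeal fibroblast genes (median 0.29) and 12 of 14 neuronal genes (median 0.15). Of 15 choroid plexus genes, 0 were higher in the lower series, with a median of -0.98. Over the remaining neutrophil list, 11 of 16 tested genes were higher in the lower series, with a median of 0.21. The summed count of all 36 genes of that list in the data was 4124 to 5309 in the lower and 4025 to 4371 in the higher series. That sum is set largely by abundant genes such as Lyz2 (mean 1340) and Csf3r (mean 932), not by scarce ones such as Ltf (mean 10.3). The median of all features was 0.00.

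No interaction between genotype and series was called for any feature (limma, 0 of 25667), and the interaction of S100a9 had an unadjusted p of 0.0856. Within the lower series S100a8 was 22.2 and 56.8 in Slm2KO, against 39.1 and 36.2 in WT libraries. Within the higher series it was 13.5 and 15.1 in Slm2KO, against 12.1 and 9.57 in WT libraries. These values rest on 2 libraries a group in each series, and no separate test was run within a series.

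Ratios within a library remove the total amount of blood. The ratio of alpha-globin to beta-globin counts was 0.923, 0.941, 0.761 and 0.758 in Slm2KO 1 to 4, against 0.988, 0.984, 0.776 and 0.793 in WT 1 to 4. Genotype means were 0.846 ± 0.10 in Slm2KO and 0.885 ± 0.117 in WT libraries (SD, n = 4 each, exact permutation p = 0.514). By number series the ratio was 0.959 ± 0.032 in the lower and 0.772 ± 0.016 in the higher series (SD, n = 4 each), with no overlap. The exact permutation p was 0.0286, and 0.0857 after adjustment over the 6 ratios computed. The series split was chosen after the values by library were seen, and neither p covers that choice. Slm2KO 2, the library richest in globin, had a ratio like that of the other lower-series libraries.

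Calprotectin relative to globin also split by series. The summed S100a8 and S100a9 count per 1000 globin counts was 3.81, 3.48, 2.61 and 2.56 in Slm2KO 1 to 4, against 5.21, 4.72, 1.21 and 1.46 in WT 1 to 4. The lower series held 3.48 to 5.21 and the higher series 1.21 to 2.61 (exact permutation p = 0.0286, adjusted 0.0857). Here too the p-values do not cover the choice of the split after the calprotectin values were seen. Genotype means were 3.12 ± 0.6253 in Slm2KO and 3.15 ± 2.11 in WT libraries (SD, n = 4 each, exact permutation p = 0.657). By this ratio Slm2KO 2 was the lowest library of the lower series.

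The other ratios varied little or did not separate. Hbb-bt made up 13.8% to 17.2% of beta-globin counts and Hba-a2 34.5% to 39.5% of alpha-globin counts, both subject to the sharing of reads between copies. Alas2 stood at 7.80 to 10.6 per 1000 globin counts in Slm2KO and 7.18 to 10.4 in WT libraries. S100a9 over S100a8 was 1.99 ± 0.504 in Slm2KO and 1.31 ± 0.174 in WT libraries (SD, n = 4 each, exact permutation p = 0.0857, adjusted 0.514). The transcripts differ in base composition, which moved with the series over all genes; its part in the ratios was not tested. The alpha-globin transcripts have 57.2% and 56.9% G and C, the beta-globin transcripts 51.3% and 50.8%, and S100a8 and S100a9 44.9% and 45.7%. Over 5 equal groups of features from the lowest to the highest GC content, the median log2 difference of the lower from the higher series was -0.05, -0.03, 0.00, 0.04 and 0.09. These medians are over many features. They do not give the part of base composition in a single gene or ratio, which was not tested.

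**Figure D3:**
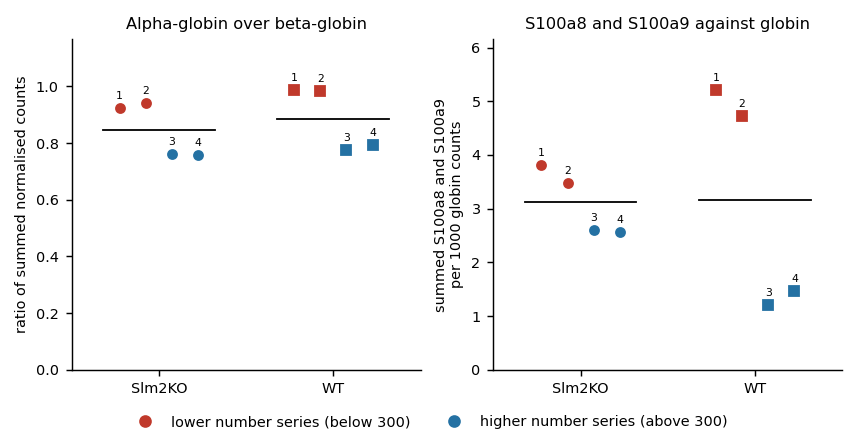
Alpha-globin over beta-globin (left) and summed S100a8 and S100a9 per 1000 globin counts (right) in each Slm2KO (circles) and WT (squares) library, with lines at group means and colours for the number series; both axes start at 0. The lower series lies between 0.923 and 0.988 on the left and between 3.48 and 5.21 on the right, above all higher-series libraries.

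Whether erythroid and neutrophil transcripts vary together was asked over the 8 libraries, with all 36 gene pairs and Benjamini-Hochberg adjustment over them. Erythroid transcripts moved together: 9 of 10 erythroid pairs passed the threshold by Pearson's r, with a median r of 0.94 (0.82 to 0.97). Hbb-bs with Hba-a1, on different chromosomes, had r = 0.95 (exact permutation p = 0.00122, adjusted 0.0163) and Spearman's rho = 0.81 (p = 0.0218, adjusted 0.0980). Hba-a1 with Alas2, which is not a globin, had r = 0.96 (exact permutation p = 0.00181, adjusted 0.0163) and rho = 0.86 (p = 0.0107, adjusted 0.0964). By Spearman's rho 0 of the 10 pairs passed. Hbb-bs with Hbb-bt, and Hba-a1 with Hba-a2, are near-identical copies whose counts may hold shared reads. The 10 pairs are therefore not separate observations.

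These correlations leaned on Slm2KO 2. Without the 2 libraries farthest from the median of the gene on the x axis, the median r over erythroid pairs was 0.64 (0.18 to 0.92), and all 10 stayed positive. Without Slm2KO 2 alone the median was 0.81 and no pair passed. As deviations from the means of the number series, the median r was 0.98 (0.93 to 0.99), though the 576 pairings within series gave no adjusted p under 0.0625. Each series holds 4 libraries, so no correlation is given within a single series.

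Among neutrophil genes the calprotectin pair stood out. S100a8 with S100a9 had r = 0.91 (exact permutation p = 0.00270, adjusted 0.0167) and rho = 0.98 (p = 0.000397, adjusted 0.0143), and r = 0.89 without the libraries farthest from the median. The pair no longer passed without Slm2KO 2 (r = 0.88), nor without WT 4. As deviations from the series means this r was 0.62 (exact permutation p = 0.0191, adjusted 0.0625). The 5 other neutrophil pairs did not pass, with r of 0.38 for S100a8 with Ngp and 0.42 for Ngp with Camp.

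Between the classes 1 of 20 pairs passed, with a median r of 0.53. That pair was Hba-a2 with S100a8 (r = 0.82, exact permutation p = 0.00278, adjusted 0.0167; rho = 0.83, p = 0.0154, adjusted 0.0980). Both genes split by number series, and as deviations from the series means r was 0.68 (adjusted p = 0.330, exact permutation). Without Slm2KO 2 and WT 4, its farthest libraries, r was 0.57. Hbb-bs with S100a8 had r = 0.54 (exact permutation p = 0.163, adjusted 0.280; rho = 0.40, p = 0.327) and -0.38 without the same libraries. Over all 20 pairs, the median r without the farthest libraries was -0.16, with 9 of 20 positive. It was 0.29 without Slm2KO 2 alone, with 0 pairs past the threshold, and 0.45 as deviations from the series means, also with 0 past it.

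**Figure D4:**
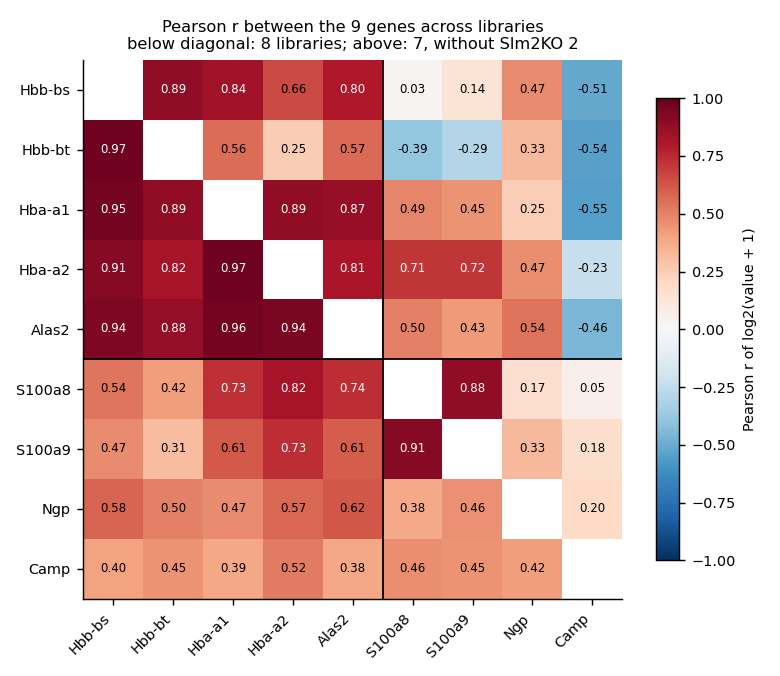
Pearson r of log2(value + 1) for all pairs of the 9 genes, over 8 libraries below the diagonal and over 7 libraries, without Slm2KO 2, above it; black lines divide erythroid from neutrophil genes. The erythroid block holds r of 0.82 to 0.97 below the diagonal, and the block between the classes is paler, with some values below 0 above the diagonal.

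**Figure D5:**
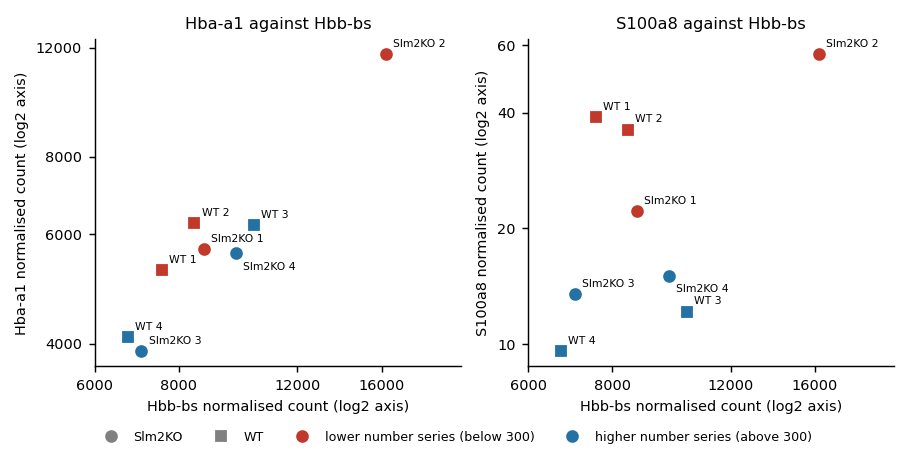
Hba-a1 (left) and S100a8 (right) against Hbb-bs, as normalised read counts on log2 axes, for Slm2KO (circles) and WT (squares) libraries coloured by number series. Hba-a1 follows Hbb-bs (r = 0.95), whereas S100a8 against Hbb-bs (r = 0.54) splits by series, with Slm2KO 2 at the top right of both panels.

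Other erythroid genes gave a mixed picture. Of 21 further erythroid genes tested, 7 were higher and 14 lower in Slm2KO than in WT libraries, 0 were called by limma, 0 had an unadjusted p under 0.05, and the median log2 fold change was -0.02, against -0.01 over all features. Slc4a1, the band 3 anion exchanger of red cells, had 7.39, 27.4, 14.5 and 8.62 in Slm2KO 1 to 4, against 8.01, 9.04, 10.1 and 9.57 in WT 1 to 4, so Slm2KO 2 was highest here too. Over the whole list Slm2KO 2 was the highest library for 2 of 31 genes. Among the embryonic globins, Hba-x, Hbb-bh1 and Hbb-bh2 had 0 reads in all 8 libraries, each allowing up to 3 reads a library. Hbb-y, a further embryonic beta-type globin, was detected in every library, with 9.24, 4.21, 18.7 and 4.31 in Slm2KO 1 to 4, against 4.01, 12.7, 20.2 and 3.83 in WT 1 to 4, and its mean was below the filter.

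Globins of other tissues, heme synthesis and heme clearance did not pass the test. Among 6 other globins, 3 were higher and 3 lower in Slm2KO libraries (median log2 fold change 0.00). Cygb, the cytoglobin of many tissues, averaged 8025 ± 1298 in Slm2KO and 8047 ± 174 in WT libraries, and Ngb, the neuronal globin, 457 ± 121 in Slm2KO and 516 ± 143 in WT libraries (SD, n = 4 each). Of 9 heme synthesis genes, 1 was higher and 8 lower, with a median of -0.03, among them Alas1, the housekeeping counterpart of Alas2 (5992 ± 201 in Slm2KO and 6148 ± 127 in WT). Of 12 genes that clear hemoglobin and heme, 4 were higher and 8 lower, with a median of -0.11. Blvrb, a biliverdin reductase, averaged 781 ± 14.8 in Slm2KO and 901 ± 51.3 in WT libraries, with a log2 fold change of -0.20 (SE 0.069, unadjusted p = 0.0138, adjusted p = 1.00 in limma).

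Further neutrophil genes were few above the filter. Of 16 tested, 8 were higher and 8 lower in Slm2KO libraries, 0 were called by limma, 0 had an unadjusted p under 0.05, and the median log2 fold change was 0.00. Lcn2, a granule protein that binds bacterial siderophores and is also made by other cells, had 42.5, 158, 47.7 and 43.1 in Slm2KO 1 to 4, against 68.1, 16.3, 28.3 and 15.3 in WT 1 to 4. Ltf, the lactoferrin of neutrophil granules, had 7.39, 29.5, 8.29 and 4.31 in Slm2KO 1 to 4, against 22.0, 7.23, 2.02 and 1.91 in WT 1 to 4. Slm2KO 2 was the highest library for both, as for 9 of 33 detected genes of this list. Stfa2, BC100530 and Mrgpra2b had 0 reads in every library. Of 7 tested receptors and partners of calprotectin and of the Camp peptide, 3 were higher and 4 lower in Slm2KO libraries (median -0.03). Among them Tlr4 averaged 359 ± 85.5 in Slm2KO and 364 ± 56.9 in WT libraries.

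Genes whose levels followed Hbb-bs most closely over the 8 libraries, among 17587 candidates with a symbol, were Gtf2i (r = 0.94), Zfp7 (0.93), Slc12a3 (0.93), 4930577N17Rik (0.93), N4bp2l2 (0.93), Xbp1 (0.93), Ppbp (0.91) and Dnal1 (0.91). Ppbp, a chemokine stored in platelets, is on the platelet list and had 12.9, 23.1, 10.4 and 12.9 in Slm2KO 1 to 4, against 8.01, 10.8, 12.1 and 5.74 in WT 1 to 4. Those closest to S100a8 were Ddit4l (0.95), Dhh (0.95), Supt20 (0.94), Gmip (0.93), Zfhx2 (0.93), Scaf4 (0.93), Cryga (0.92) and Tm6sf2 (0.92). Values this high are picked from 17587 genes over 8 libraries and serve as a description.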

How the data were processed

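RNA-seq of 8 hippocampal libraries (4 labelled Slm2KO, 4 labelled WT) was analysed from the authors' deposited gene table. The deposited signal values are normalised read counts; per the submitters' processing notes DESeq scaled them, and FastQC, Picard and SAMtools were also used. The notes list hg19, whereas the file header states mm10, which is used here. The aligner and the counting program are not stated in the sources used here. Values were whole multiples of 1 step per library: 100% came out whole within 0.001 of a read in each library, with size factors of 0.928 to 1.11. On those reads edgeR's quasi-likelihood test called 1 feature and DESeq2 called 9.

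Genotypes were compared with limma 3.58.1 (R 4.3.3, trended prior) on log2(value + 1) for features with a mean of at least 10, with an adjusted p threshold of 0.05. The added 1 shrinks changes of low genes. A fit on logs can still exceed the ratio of mean counts. For Ngp, at 1.81 in WT 2 and 0 in WT 4, it gave 3.28-fold where that ratio was 2.20. Exact permutation tests were two-sided, over 70 assignments for groups and 40320 pairings for correlations. edgeR 4.0.16, DESeq2 1.42.0, scipy 1.17.1 and matplotlib 3.10.9 were used; procedures were tested on simulated data. Transcript lengths and GC content came from GENCODE vM21 (97.8% of tested features with an Ensembl identifier). Members and lists were chosen with earlier results of these data known. The genes named were the 9 members, Khdrbs3, the 8 genes most correlated with each of Hbb-bs and S100a8, any tested gene of the lists of other erythroid and neutrophil genes, and from the other lists up to 3 genes of highest mean and 2 of smallest p; other names (Khdrbs2, Hbb-y, Chil3, Apex2 and the genes at 0 reads) were chosen after their values were seen. List genes such as Ahsp, Epb42, Ly6g and Ighm were not analysed here. Single-gene results for some list genes are not reported here. Alternatives were pseudocounts, filters, scalings, tests, covariates, a replicate block and each library left out.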

Additional observations from a re-analysis of the deposited data

Results flagged for a closer look

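Of 90 groups of 4 libraries examined, 11 held a library whose gap to its nearest neighbour exceeded Dixon's 95% limit; chance flags about 1 in 20. Among the 9 genes, Hba-a2 in WT 4 (2266, the next WT library at 3280.4) lay far below its group, and Camp in Slm2KO 2 (10.5, the next at 2.15) far above it. Further neutrophil genes stood apart in the same Slm2KO library: Lcn2 at 158 (next 47.7), Ltf at 29.5 (next 8.29) and Chil3, a chitinase-like protein, at 16.8 (next 3.70). These 3 were picked by hand, and the other genes of the neutrophil list were not examined for outliers, so they are not separate support. Slm2KO 2 was highest for 9 of 33 detected genes of that list, and lowest for others such as Lyz2 (1036). Apex2, which overlaps Alas2 on the other strand, was low in WT 4 (875, next 1034). The remaining genes were chosen for their likeness to Hbb-bs or S100a8 and are not separate cases: Slc12a3 was 28.4 in Slm2KO 2 and 13.4 in WT 4, 4930577N17Rik was 71.9 in WT 3, Dhh was 54.7 in Slm2KO 2 and Supt20 was 8766 in Slm2KO 2.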

How the results depend on the processing

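For the 8 tested genes and Camp, 168 of 175 genotype values kept their direction and none passed the threshold, though DESeq2 gave no adjusted p for the 4 neutrophil genes. The other 7 reversed when a library was left out: Hba-a1 (-0.11), Hba-a2 (-0.014), Alas2 (-0.13) and S100a8 (-0.28) without Slm2KO 2, Alas2 (-0.003) and S100a8 (-0.19) without WT 4, and S100a8 (-0.08) without WT 3. The filters, the fit without the trend, the replicate block and the number series term could not change a fitted fold change here. Their values kept direction by design and are not separate support. Leaving out each library in turn gave log2 fold changes of -0.11 to 0.42 for Hba-a1, -0.014 to 0.47 for Hba-a2, -0.13 to 0.42 for Alas2, -0.28 to 0.45 for S100a8, 0.32 to 1.05 for S100a9 and 0.94 to 2.24 for Ngp. Over all features 1 was called; the count was 2 with a pseudocount of 10, 12 without a filter, 9 with DESeq2, 0 without the trend, 2 with Ttr as a covariate, 0 without the 3 libraries with Y-linked reads, and 0 to 2 with a library left out. By number series, Y-linked reads as a further term, chosen after seeing the data, reversed Hbb-bs (-0.32), Hbb-bt (-0.43), Hba-a1 (-0.052), Alas2 (-0.22) and Ngp (-1.70) and left Hba-a2 at 0.11. In that fit the series difference rests on WT 3 alone, the only higher-series library without Y-linked reads, and the cause was not tested. With a library left out the lowest log2 series differences were -0.0066 for Hbb-bs and -0.21 for Hbb-bt (without Slm2KO 2), and -0.29 for Ngp (without WT 4); the highest were 0.41, 0.31 and 1.28. Without Slm2KO 3, Hbb-bt was at -0.04. S100a8 kept 1.27 to 1.79 and S100a9 1.36 to 1.72. As deviations from series means, 0 erythroid, 0 neutrophil and 0 mixed pairs passed. The median erythroid r did not fall there, at 0.98 against 0.94 in the main setting. The 576 pairings within series gave no adjusted p under 0.0625 (exact permutation). For the neutrophil and mixed pairs the cause was not tested. Mixed pairs passing numbered 2 with a pseudocount of 10 and 2 as deviations from genotype means. With a library left out, 0 to 9 erythroid pairs passed (0 without Slm2KO 2, 4 without Slm2KO 3, 1 without WT 4), 0 to 1 neutrophil (0 without Slm2KO 2 or WT 4) and 0 to 3 mixed pairs (0 without Slm2KO 2 or WT 4, 2 without WT 1, 3 without WT 3).

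Replicate numbers did not pair the samples: same-numbered libraries deviated with correlations of 0.12, 0.32, -0.07 and -0.12. With the replicate number as a block 1 feature was called. S100a9 had a log2 fold change of 0.70, which the block cannot change (unadjusted p = 0.0587, adjusted p = 1.00 in limma). Depth limits the neutrophil genes, with 10 to 54 reads of S100a8 and 0 to 10 of Camp per library.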

Other observations

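No tested gene on the lists of other blood cells passed the test. Of 11 platelet and megakaryocyte genes tested, 2 were higher and 9 lower in Slm2KO than in WT libraries (median log2 fold change -0.08, limma, 0 called). Gp1bb averaged 2143 ± 298 in Slm2KO and 2155 ± 76.0 in WT libraries, and Vwf, the von Willebrand factor that endothelium also makes, 1114 ± 131 in Slm2KO and 1320.4 ± 390 in WT libraries (SD, n = 4 each). Of 5 B cell genes 2 were higher and 3 lower (median -0.27), and of 6 T and NK cell genes 1 was higher and 5 lower (median -0.32), with Cd4 at 48.3 on average in Slm2KO and 69.7 in WT libraries (unadjusted p = 0.0269, adjusted p = 1.00 in limma).

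Vessel and border cells differed in the direction of their medians from the globins. Of 21 endothelial and mural genes 1 was higher and 20 lower in Slm2KO libraries (median -0.19, 0 called). Pecam1, an endothelial adhesion molecule, averaged 1658 ± 278 in Slm2KO and 2048 ± 388 in WT libraries, and in Slm2KO 2, the library richest in globin, it was 1719. Of 13 monocyte and border macrophage genes 2 were higher and 11 lower (median -0.20), of 15 microglial genes 3 and 12 (median -0.07), of 15 meningeal fibroblast genes 1 and 14 (median -0.43), and of 15 choroid plexus genes 8 and 7 (median 0.05). Limma called 0 genes of these lists. WT 1 had the highest summed count of the endothelial and mural, the monocyte and border macrophage, and the meningeal lists. Genes of a list share libraries, so their directions are not separate observations. Of all features, 46.1% had a fitted log2 fold change above 0.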
